A study of Mus musculus with 2 samples.

Results

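The genes described here encode the ubiquitin-conjugating enzymes of the Ube2 family, measured by long-read RNA sequencing in mouse heart. They were chosen by name: protein-coding genes whose symbol starts with Ube2 and that had reads in both libraries. This rule gave 32 genes, of 37 protein-coding Ube2 genes in the annotation and of 11489 protein-coding genes with reads in both libraries. Of the other 5, Ube2cbp had 1 read in replicate 1 and 0 in replicate 2, and Ube2d2b, Ube2dnl1, Ube2dnl2 and Ube2u had no reads. The tissue was heart of female B6CASTF1/J mice aged 2 months, a first-generation hybrid between a C57BL and a CAST strain. There was 1 group, untreated as far as the labels say, with 2 biological replicates, and 2 µg of total RNA went into each. Animals 3 and 4 are named in the labels of the samples, but the text on the libraries names animal 3 for both and the donor identifier is shared. Whether the spread between the replicates includes a difference between animals is therefore not known.

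Replicate 1 held 905154 reads and replicate 2 held 745375, of which 859191 and 707758 fell on annotated genes. Levels are given per 1000000 of these reads (CPM), so that a single read gave 1.16 CPM in the deeper library and 1.41 CPM in the other. A count of 0 allows a level of up to 3.49 and 4.24 CPM. Cardiomyocyte markers, which define the labelled tissue, summed to 44974 and 47574 CPM in the 2 libraries. Red blood cell markers summed to 32227 and 29577 CPM, fibroblast markers to 1398 and 1358, macrophage markers to 377 and 276, endothelial markers to 289 and 298, and smooth muscle markers to 177 and 151. In bulk tissue, fewer cells of a type and less RNA per cell cannot be told apart. Of 6 markers of dividing cells, Mki67, Ccnb1 and Birc5 had no reads, and the other 3 had 2 reads in each library together.

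Ubiquitin is a small protein that is attached to other proteins in a relay. An activating enzyme (E1) loads ubiquitin, a conjugating enzyme (E2) carries it on a cysteine, and a ligase (E3) brings the charged E2 to the substrate. With many ligases, though not all, the E2 enzyme largely sets which kind of ubiquitin chain is built. Some E2 enzymes carry ubiquitin-like proteins such as NEDD8, SUMO or ISG15 instead. In heart muscle the pathway removes worn sarcomere proteins and regulates growth and signaling.

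The cysteine that carries ubiquitin sits a short way after a conserved His-Pro-Asn stretch. A search of the coding sequence of each leading annotated model (the one with most reads) looked for codons of His-Pro-Asn followed by a Cys codon 10 or 11 codons after the His. It was found in 19 of the 32 genes, 17 with the Cys at 10 codons and 2, Ube2h and Ube2k, at 11 codons. Over the longest coding sequence of each of 21866 protein-coding genes, 91 (0.416%) held it. It was not found in Ube2v1, Ube2v2, Ube2z, Ube2w, Ube2o, Ube2j1, Ube2j2, Ube2e1, Ube2e2, Ube2e3, Ube2q1, Ube2q2 and Ube2ql1. No match says only that these letters are not in these models. The Ube2v proteins are known to lack the catalytic cysteine. The stretches below are shown because they hold the cysteine on which the enzymes carry ubiquitin or a ubiquitin-like protein, and because Ube2d3 and Ube2d1 show how related members differ at the base level. Ube2m, Ube2l6 and Ube2h are among the 12 highest members. They are from GENCODE M21 transcripts (mm10), 5′ to 3′ from the His codon, and the Cys codon is in capitals.
Ube2d3: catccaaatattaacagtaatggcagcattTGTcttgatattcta
Ube2d1: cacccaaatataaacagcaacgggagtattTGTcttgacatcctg
Ube2m: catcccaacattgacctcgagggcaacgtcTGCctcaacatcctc
Ube2l6: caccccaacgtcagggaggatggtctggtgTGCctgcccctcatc
Ube2h: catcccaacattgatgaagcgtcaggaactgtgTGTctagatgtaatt
The Ube2d3 stretch lies at chr3:135459999-135460043 on the plus strand, in exon 6 of 8, with the Cys codon at codon 85 of 147. The Ube2m stretch lies at chr7:13036214-13036258 on the minus strand, in exon 4 of 6, with the Cys at codon 111 of 183. The Ube2h stretch is split between exons 4 and 5, and its Cys codon at codon 87 of 183 is in exon 5. The leading models coded for 145 (Ube2v2) to 1288 (Ube2o) codons, with a median of 183.

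The 32 genes together took 2531 reads in replicate 1 and 2126 in replicate 2. As a share of all reads on annotated genes that was 0.295% (95% Wilson interval 0.283 to 0.306) and 0.300% (0.288 to 0.313), or 0.297% ± 0.00411 (SD, n = 2). These intervals cover counting error only. Mean levels ran from 472 CPM for Ube2d3 to 1.29 CPM for Ube2c. There were 10 genes at or above 100 CPM, 16 between 20 and 100, and 6 below 20. The median over the members was 58.4 CPM, beside 19.5 CPM over all protein-coding genes with reads in both libraries. The 3 highest genes, Ube2d3, Ube2m and Ube2v1, took 35.1% and 37.2% of the family's reads, and the 12 highest took 73.9% and 74.9%.

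**Figure D1:**
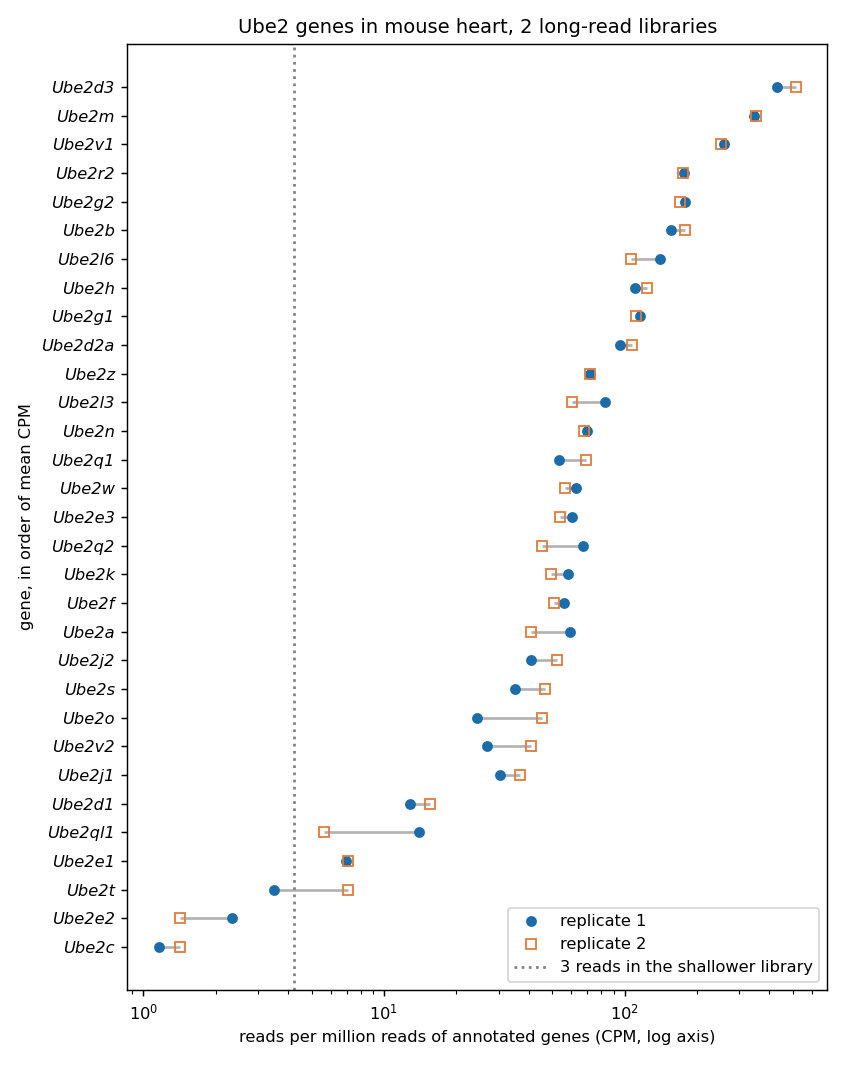
Level of 31 of the 32 Ube2 genes in CPM on a log axis, with replicate 1 as filled circles, replicate 2 as open squares and a line joining them; the dotted line marks 3 reads in the shallower library. Ube2d3, Ube2m and Ube2v1 stand above the rest in both libraries, and Ube2e2 and Ube2c lie below 3 reads.

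A long read counts 1 cDNA whatever its length, so CPM is not divided by length, and the order was also taken per kilobase of the mean model length weighted by reads. Of the 12 highest genes by CPM, 10 were among the 12 highest per kilobase. Ube2h and Ube2z dropped out, and Ube2s and Ube2l3 came in. Ube2m led with 239 CPM per kilobase and Ube2d3 followed with 158, so the order of these 2 genes turns with the scale. Ube2v1 came next on both scales, with 130 CPM per kilobase. Neighbours in the order by CPM were mostly not separated, since in 23 of 31 neighbouring pairs the ranges of the 2 libraries overlapped. Ube2d3, Ube2m and Ube2v1 did not overlap with one another, while Ube2r2, Ube2g2 and Ube2b did.

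The broadly acting ubiquitin E2 enzymes were led by Ube2d3 (chr3:135438149-135468198), which works with many RING ligases. It had 369 reads in replicate 1 and 364 in replicate 2, or 429 and 514 CPM, and only 282 protein-coding genes were higher in mean CPM. Replicate 2 was the higher library. Ube2d2a, whose protein is 97.3% identical to that of Ube2d3 over 147 residues, had 82 and 76 reads, or 95.4 and 107 CPM. Ube2d1, at 88.4% identity to Ube2d3, had 11 reads in each library, or 12.8 and 15.5 CPM. Ube2d3 thus took 79.9% (76.0 to 83.3, Wilson) and 80.7% (76.8 to 84.1) of the reads of the trio, Ube2d2a 17.7% and 16.9%, and Ube2d1 2.38% and 2.44%. The proteins are close but the coding bases are less so, with 86.4% of 441 bases identical between Ube2d3 and Ube2d2a and 77.3% between Ube2d3 and Ube2d1. A transcribed pseudogene of the family, Ube2d-ps, had 21 and 30 reads and is not among the 32 genes.

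Among the other broadly acting members, Ube2h (chr6:30211289-30304539), the E2 of the CTLH ligase and a gene known for its high expression during red cell maturation, had 95 and 88 reads, or 111 and 124 CPM. Ube2l3, which serves HECT and RBR ligases such as parkin, had 71 and 43 reads, or 82.6 and 60.8 CPM. Ube2w, which attaches ubiquitin to protein N termini, had 54 and 40 reads, or 62.8 and 56.5 CPM. The ranges of Ube2l3 and Ube2w overlapped, and both lay below Ube2h in both libraries. The UBE2E family was nearly all Ube2e3, with 52 and 38 reads against 6 and 5 for Ube2e1 and 2 and 1 for Ube2e2. Ube2e3 had 86.7% and 86.4% of the reads of that trio.

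E2 enzymes that build the Lys48-linked chains read by the proteasome were the next group. Ube2r2 (chr4:41135743-41193380), which extends chains on substrates of cullin-RING ligases, had 152 and 124 reads, or 177 and 175 CPM. Ube2g1 (chr11:72607283-72686481) had 100 and 79 reads, or 116 and 112 CPM, and Ube2k had 50 and 35 reads, or 58.2 and 49.5 CPM. These 3 genes were separated in both libraries, with no overlap of their ranges. Cdc34, the close relative of Ube2r2 that carries another name, had 199 and 139 reads. Ube2r2 had 43.3% (Wilson interval 38.2 to 48.5) and 47.1% (41.2 to 53.2) of the reads of this pair. The order of the pair turns when only reads on annotated models are counted, because 57.3% and 61.9% of Cdc34 reads were on incomplete models. Ube2r2 then had 138 and 121 reads against 79 and 53 for Cdc34, or 63.6% and 69.5%.

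At the endoplasmic reticulum, where misfolded proteins are extracted and marked, Ube2g2 (chr10:77622275-77645993) was the most abundant E2. It had 153 and 120 reads, or 178 and 170 CPM. The membrane-anchored enzymes were lower, with 35 and 37 reads for Ube2j2 (40.7 and 52.3 CPM) and 26 in each library for Ube2j1 (30.3 and 36.7 CPM). Ube2g2 had 60.5% and 60.3% of the reads of Ube2g1 and Ube2g2 together. Gm49325, annotated on the same strand across part of Ube2g2, had 19 and 12 reads that may belong to either gene.

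Lys63-linked chains, used in signaling and repair of DNA rather than in proteasome targeting, are built by Ube2n paired with Ube2v1 or Ube2v2. The inactive partner Ube2v1 (chr2:167607638-167632095) had 222 and 178 reads, or 258 and 251 CPM. Ube2n itself had 60 and 48 reads, or 69.8 and 67.8 CPM, and Ube2v2 had 23 and 29 reads, or 26.8 and 41.0 CPM. Ube2v1 was the highest of the 3 genes in both libraries and Ube2v2 the lowest. Ube2v1 had 90.6% (Wilson interval 86.3 to 93.7) and 86.0% (80.6 to 90.1) of the reads of the Ube2v pair. The mouse genome has processed copies of these genes at 100% identity, of which Gm8325 (a copy of Ube2v1) had 3 and 2 reads, Ube2n-ps1 had 2 and 5, and Gm6565 (a copy of Ube2v2) had 4 and 1.

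The Rad6 homologs Ube2a and Ube2b ubiquitinate histone H2B with Rnf20 and Rnf40 and PCNA with Rad18. Ube2b (chr11:51985497-52000762) had 134 and 126 reads, or 156 and 178 CPM, and the X-linked Ube2a had 51 and 29 reads, or 59.4 and 41.0 CPM. The 2 proteins are 95.4% identical over 152 residues. Ube2b had 72.4% (65.6 to 78.4, Wilson) and 81.3% (74.4 to 86.6) of the reads of the pair, and these intervals overlap. Of the partners, Rnf40 had 75 and 72 reads, Rnf20 had 15 and 16, and Rad18 had 1 in each library. Gm26551, which overlaps Ube2b on the same strand, had 5 and 13 reads.

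Among the enzymes of the cell cycle and of interstrand crosslink repair, Ube2c and Ube2t were at the low end. Ube2c, which starts chains for the anaphase-promoting complex in dividing cells, had 1 read in each library. Ube2t, the E2 of the Fanconi anemia pathway, had 3 and 5 reads. Ube2s, which extends the chains that Ube2c starts, was higher, with 30 and 33 reads, or 34.9 and 46.6 CPM. Ube2c lay below 3 reads in both libraries, as did the summed markers of dividing cells, while Ube2s lay well above both.

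**Figure D2:**
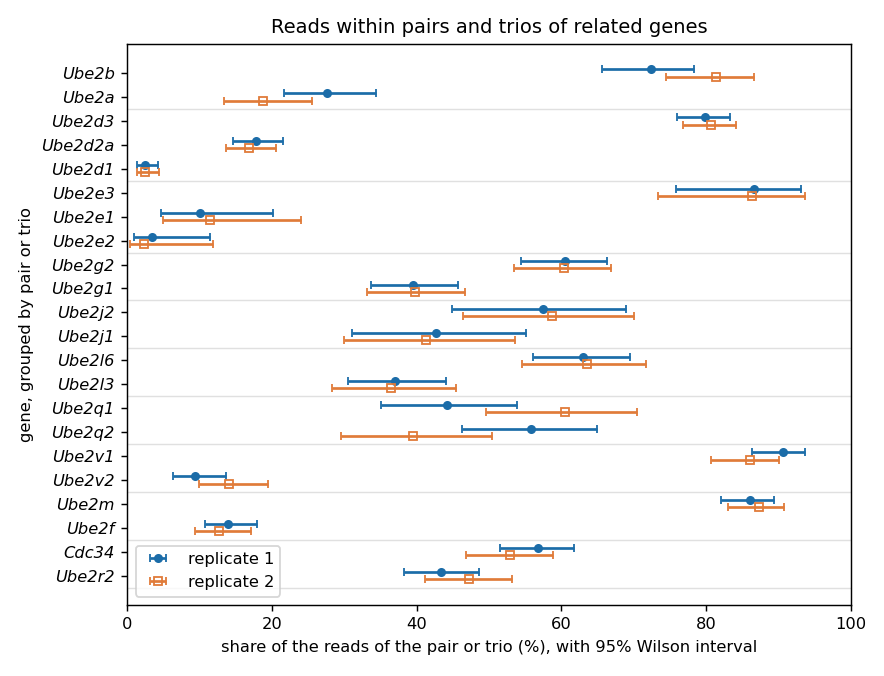
Share of the reads of each pair or trio of related genes taken by each gene, in percent, with 95% Wilson intervals, replicate 1 as filled circles and replicate 2 as open squares. Ube2d3, Ube2e3, Ube2v1 and Ube2m take over 75% of their sets in both libraries. The Ube2q pair, the Ube2j pair (Ube2j2 at 57.4% and 58.7%) and the pair of Cdc34 and Ube2r2 are nearer balance.

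Among the enzymes for ubiquitin-like proteins, Ube2m (chr7:13035120-13038275), the main E2 for NEDD8, was second in the family. It had 297 and 248 reads, or 346 and 350 CPM. Ube2f, the other NEDD8 enzyme, had 48 and 36 reads, so that Ube2m had 86.1% and 87.3% of the reads of the 2 genes. Nedd8 itself had 126 and 80 reads, its activating subunits Nae1 and Uba3 had 37 and 43 and 38 and 30, and Rbx1, the RING protein of cullin ligases that works with Ube2m, had 147 and 141. Ube2m was higher than each of these 4 companions in both libraries.

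Ube2l6 (chr2:84798828-84810335), the E2 for the interferon-induced modifier ISG15, had 121 and 75 reads, or 141 and 106 CPM. Its modifier Isg15 had 1 read in replicate 1 and 0 in replicate 2, and its E1, Uba7, had 10 and 8. The enzyme was thus measured at 123 CPM with its modifier at or under the limit of detection. Ube2l6 had 63.02% and 63.6% of the reads of Ube2l3 and Ube2l6, although the 2 proteins are only 50% identical. Ube2z (chr11:96047432-96065388), which takes ubiquitin and FAT10 from the activating enzyme Uba6, had 62 and 51 reads, or 72.2 and 72.1 CPM. Uba6 had 2 reads in replicate 1 and 0 in replicate 2. Of the modifiers of the SUMO pathway, Sumo2 had 83 and 78 reads and Sumo3 had 77 and 53, and the subunits of the SUMO E1, Sae1 and Uba2, had 60 and 60 and 50 and 36.

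The large and divergent members were moderate to low. Ube2q1 had 46 and 49 reads and Ube2q2 had 58 and 32. The order of these 2 genes was opposite in the 2 libraries, with Ube2q1 at 44.2% (35.1 to 53.8, Wilson) and 60.5% (49.6 to 70.4) of their reads. Ube2ql1 had 12 and 4 reads. Ube2o, an E2 of 1288 codons that also acts as its own ligase, had 21 and 32 reads, or 24.4 and 45.2 CPM.

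Companion genes of the relay were measured beside the family, from lists chosen with earlier results of these data known. The most abundant E1 was Uba1, with 177 and 180 reads and a mean of 230 CPM ± 34.2 (SD, n = 2), followed by Sae1 at 77.3 and Uba2 at 54.5. Of the genes that encode ubiquitin itself, Ubb had 1463 CPM ± 50.9 (SD, n = 2). The E2-like genes outside the Ube2 name were led by Cdc34 at 214 CPM, Tsg101 at 176 and Aktip at 117. Among E3 partners, Stub1 had a mean of 217 CPM and Rbx1 of 185.

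No Ube2 gene was called between the 2 libraries. A two-sided exact conditional binomial test compared the reads of each gene with the library totals, over all genes with at least 10 reads in total and with Benjamini-Hochberg adjustment. It covers counting error only. Of the 32 genes, 29 could be tested and 0 passed the rule for a call (adjusted p below 0.05 with a minimum fold of 2), against a background of 0.321% of the 9334 genes tested. Without the fold minimum 0 members were called, against 1.15%. At an unadjusted p below 0.05 there were 2 members, Ube2d3 and Ube2o, against 8.53% of all genes. The edgeR exact test with a preset variation of 0.1 or 0.2 also called 0 members. The members' median log2 ratio of replicate 2 over replicate 1 was -0.01, beside 0.05 over all genes tested, and 14 were higher and 15 lower, where 55.1% of all genes tested were higher. With TMM scaling or DESeq2 size factors 11 of the 29 members were higher. There were 26 of 29 members within 1.5-fold (89.7%), beside 77.7% of all genes tested. These shares were not compared at matched level. The members' median was 58.4 CPM, beside 19.5 CPM over all protein-coding genes with reads in both libraries, and counting error is wider at fewer reads.

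Ube2d3 was higher in replicate 2 by a log2 ratio of 0.26, a 1.20-fold difference with an exact 95% interval of 1.03 to 1.39, with an unadjusted p of 0.0158 and an adjusted p of 0.374 by the exact test. Ube2o had a log2 ratio of 0.88, a 1.85-fold difference with an interval of 1.03 to 3.38 and an adjusted p of 0.476 by the exact test. Neither passed the threshold. The lowest log2 ratio was that of Ube2ql1, at -1.19 from 12 and 4 reads. Ube2m differed by 1.01-fold, with an interval of 0.853 to 1.20. Ube2l6 had a log2 ratio of -0.41, and the interval of its plain ratio (replicate 2 over replicate 1, not log2) was 0.556 to 1.01. The companion lists also had 0 called genes by the exact test, with or without the fold minimum, of 8 E1 genes tested, 7 E2-like genes, 10 ubiquitin and ubiquitin-like genes and 16 E3 partners. Their median log2 ratios were 0.28, -0.24, -0.15 and 0.18. By the exact test 1, 0, 1 and 2 of them had an unadjusted p below 0.05, beside 8.53% of all genes tested.

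**Figure D3:**
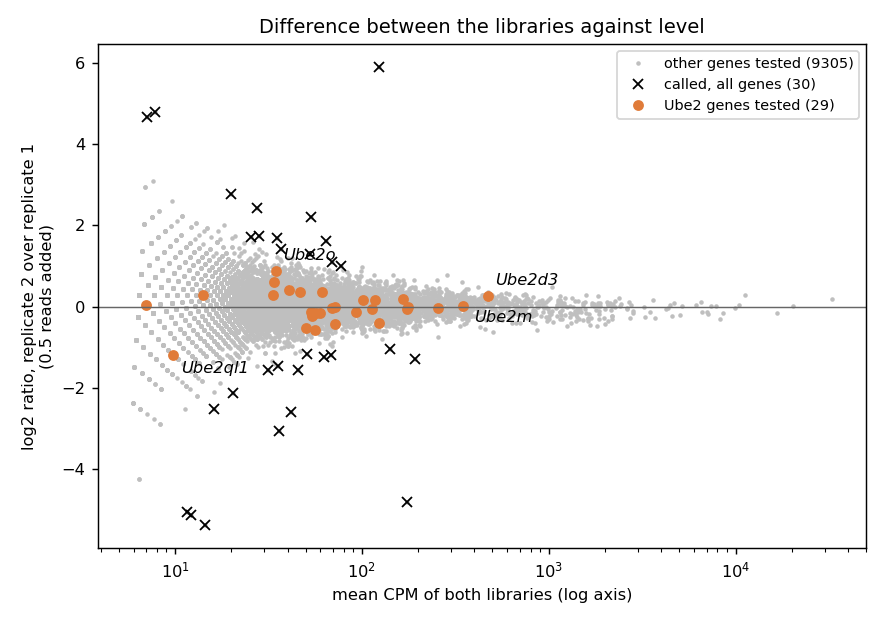
Log2 ratio of replicate 2 over replicate 1 against mean CPM on a log axis, for the other genes tested (grey), the 29 Ube2 genes tested (orange) and the 30 genes called (crosses). No Ube2 gene is among the crosses, and most lie close to 0.

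Each read had been assigned to a transcript model of 1 of 5 classes. Known models are in the annotation. Incomplete models (ISM) match only part of an annotated splice pattern. NIC models join annotated splice sites in a new combination, NNC models have at least 1 unannotated splice site, and genomic models are unspliced or match no splice site. Known models held 87.8% (86.5 to 89.0, Wilson) and 87.0% (85.5 to 88.4) of the family's reads, beside 75.9% and 75.6% over all protein-coding genes. Incomplete models took 2.49% and 2.73%, beside 11.05% and 10.2%. NIC models took 3.87% and 4.37%, beside 4.97% and 5.54%, NNC models 1.98% in each library, beside 3.12% and 3.53%, and genomic models 3.87% and 3.90%, beside 4.98% and 5.08%. The family and all protein-coding genes were not matched for level or transcript length here. Shares of pooled reads give most weight to the most abundant genes.

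The members differed among themselves. Of the 26 with at least 50 reads, 12 had more than 90% on known models, 8 had 80 to 90%, 6 had less than 80% and 0 had less than 50%. Ube2a (98.8%), Ube2s (98.4%) and Ube2v1 (96.5%) were at the top. The 6 lowest were Ube2j1 at 50%, Ube2o at 52.8%, Ube2l3 at 67.5%, Ube2h at 70.5%, Ube2d3 at 77.9% and Ube2j2 at 79.2%. Which class filled the gap differed from gene to gene: NIC in Ube2d3, genomic in Ube2h, incomplete in Ube2l3, and both NIC and genomic in Ube2j1.

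**Figure D4:**
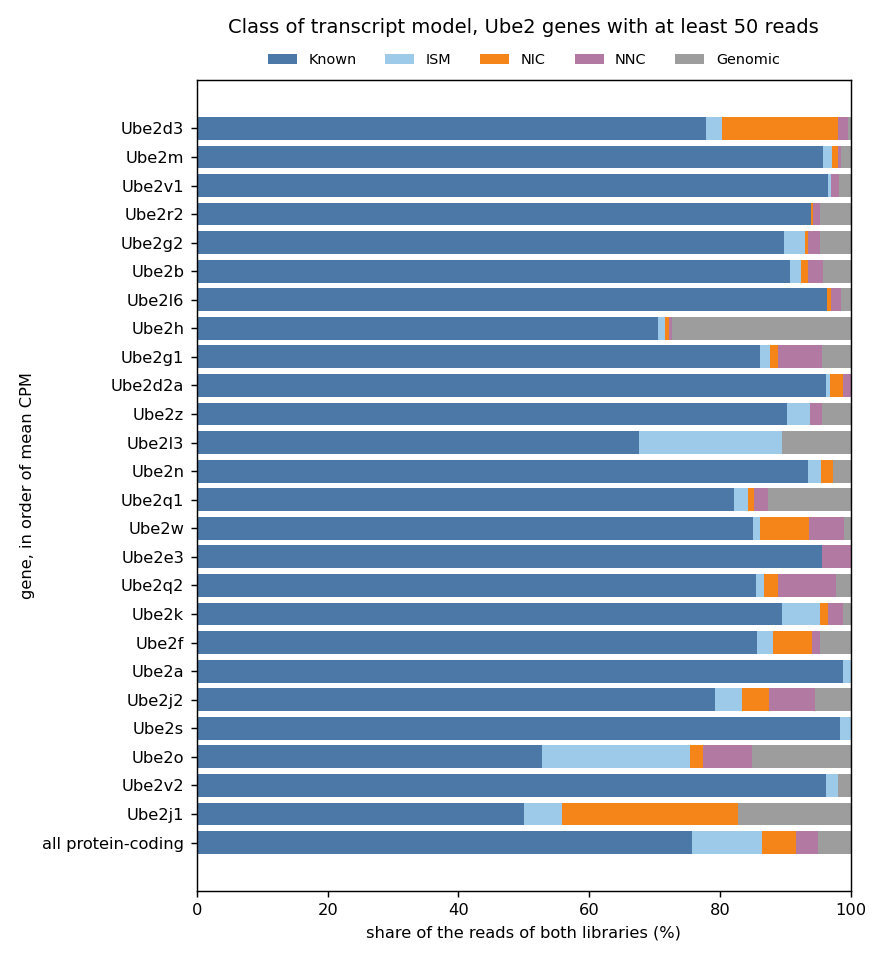
Share of reads of both libraries on each class of transcript model, in percent, for 25 of the 26 Ube2 genes with at least 50 reads and for all protein-coding genes (last bar). The wide orange parts are NIC models of Ube2d3 and Ube2j1, and the wide grey part is the genomic model of Ube2h.

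The NIC reads of Ube2d3 came mainly from a 50-base exon at chr3:135463721-135463770, between exon 7 and the last exon of the leading model. The exon is annotated only in Ube2d3-208, which starts inside the first intron and had 1 read in replicate 1 and 0 in replicate 2. Over all multi-exon reads that crossed the interval, 58 of 362 in replicate 1 held the exon, or 16.02% (Wilson interval 12.6 to 20.2), and 63 of 351 in replicate 2, or 17.9% (14.3 to 22.3). The mean was 16.99% ± 1.36 (SD, n = 2). The exon holds a stop codon 1 base before its end, so a transcript with it ends its coding sequence there and codes for 148 codons in place of 147. The alternative ends are shown after the last 18 bases of exon 7, which are in lower case. Capitals mark the coding end that differs, the first at chr3:135465195-135465240 and the second at chr3:135463721-135463770, both on the plus strand.
Ube2d3 without the exon: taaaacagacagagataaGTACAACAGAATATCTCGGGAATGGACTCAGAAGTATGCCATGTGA
Ube2d3 with the exon: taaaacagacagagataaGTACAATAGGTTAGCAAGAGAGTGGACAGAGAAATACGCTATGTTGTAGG
The catalytic stretch lies upstream of both ends. The last 14 codons of the shorter form were compared position by position with the same positions of the longer one: 29 of 42 bases were the same, and 11 of 14 codons coded for the same residue. The first 132 codons are shared exons in both forms.

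The other major choice in Ube2d3 was the first exon, and it leaves the protein as it is. The leading model, Ube2d3-212, had 177 and 179 reads, or 60.4% (Wilson interval 54.7 to 65.8) and 64.4% of the reads on annotated models. Ube2d3-202, whose first exon ends 5′ of that of the leading model, had 95 and 83 reads, or 32.4% and 29.9%. Ube2d3-210, which starts inside the first intron, had 13 and 12 reads, and Ube2d3-201, with a first exon further upstream, had 5 and 3. All 4 have the same 147 codons. Of 11 members with 50 or more annotated reads in both libraries, Ube2d3 alone had a second model that reached 20% in both.

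The long reads join both choices in 1 molecule. With the long first exon of Ube2d3-212, 33 of 211 reads in replicate 1 held the 50-base exon, or 15.6% (Wilson interval 11.4 to 21.1), and 39 of 222 in replicate 2, or 17.6% (13.1 to 23.1). With the short first exon of Ube2d3-202, the counts were 23 of 120, or 19.2% (13.1 to 27.1), and 20 of 104, or 19.2% (12.8 to 27.8). The intervals of the 2 starts overlap in both libraries. With a start inside the first intron, as in Ube2d3-210, 1 of 14 and 1 of 13 reads held the exon.

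**Figure D5:**
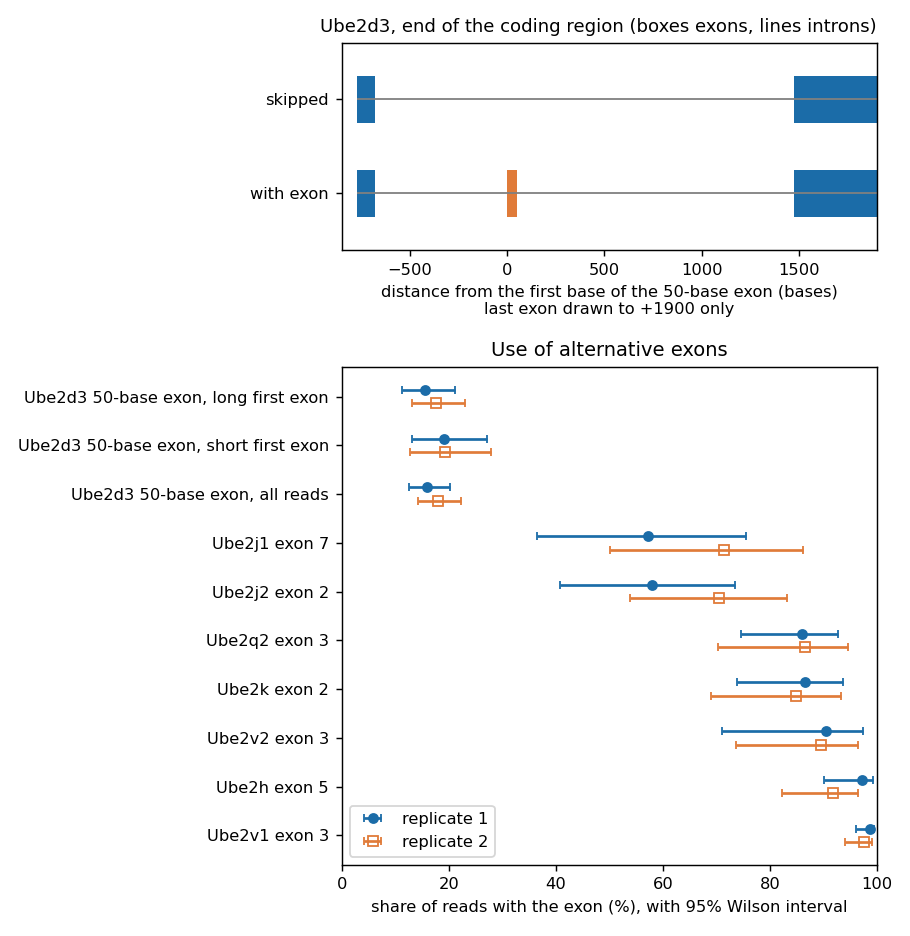
Top, exons (boxes) and introns (lines) at the end of the Ube2d3 coding region, with the 50-base exon in orange, drawn to scale by distance in bases. Bottom, share of reads that hold each alternative exon, in percent with 95% Wilson intervals, replicate 1 as filled circles and replicate 2 as open squares; the Ube2d3 exon averages 16.99%, and the other exons drawn, each part of a leading model, are in most reads.

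Few unannotated splice patterns were seen in both libraries, but these held most of the reads on such patterns. The members had 124 different NIC or NNC intron chains, of which 15 (12.1%) in 9 genes were in both libraries, beside 16.7% of 45029 chains over all genes. Chains in both libraries held 58.0% of the members' reads on NIC or NNC chains, beside 67.1% over all genes. The most used was the Ube2d3 chain with the long first exon and the 50-base exon, with 33 and 38 reads, and only 140 such chains of all genes had more reads. The second was the same exon with the short first exon, with 23 and 19 reads. Then followed a Ube2j1 chain with 8 and 6 reads, another Ube2d3 chain with 5 and 1, and a Ube2g1 chain with 4 and 1. The remaining 10 had 4 reads or fewer in total. One of them, in Ube2ql1, had another first exon and took 1 of 12 reads in replicate 1 and 3 of 4 in replicate 2.

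The Ube2j1 chain leaves out exon 7 of Ube2j1-202. Ube2j1 codes for an enzyme held in the endoplasmic reticulum membrane by its C terminus. The exon lies at chr4:33045080-33045199 on the plus strand and spans codons 187 to 226 of 318, so leaving it out keeps the reading frame. It is shown in capitals with 12 bases of the neighbouring exons on each side.
Ube2j1 exon 7: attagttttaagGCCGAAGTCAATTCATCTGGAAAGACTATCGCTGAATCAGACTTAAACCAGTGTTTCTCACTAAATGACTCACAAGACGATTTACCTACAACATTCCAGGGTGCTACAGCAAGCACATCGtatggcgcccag
Over all multi-exon reads, 9 of 21 in replicate 1 and 6 of 21 in replicate 2 left it out, or 42.9% and 28.6%. The share with the exon was 57.1% (Wilson interval 36.5 to 75.5) and 71.4% (50.04 to 86.2), and these overlap.

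Exons of the leading model of 6 other members were left out of some reads in both libraries. In Ube2j2, exon 2 (chr4:155946255-155946417) was in 18 of 31 reads in replicate 1 and 24 of 34 in replicate 2, or 58.1% and 70.6%. Its models with the exon code for 271 codons and those without it for 259. In Ube2q2, exon 3 of 105 bases was left out of 8 of 57 and 4 of 30 reads, or 14.04% and 13.3%, which keeps the frame. In Ube2k, exon 2 of 94 bases was left out of 6 of 45 and 5 of 33 reads, or 13.3% and 15.2%, and Ube2k-210, an annotated model without it, had 4 and 5 reads and codes for 97 codons in place of 200. Exon 3 is 126 bases in both Ube2v genes. It was left out of 3 of 219 and 4 of 171 reads of Ube2v1, or 1.37% and 2.34%, and of 2 of 21 and 3 of 29 reads of Ube2v2, or 9.52% and 10.3%. The difference between the 2 genes was not tested. In Ube2h, exons 4 and 5 were both left out in Ube2h-201, with 2 of 68 annotated reads in replicate 1 and 5 of 61 in replicate 2. Exon 5 holds the Cys codon printed above, and Ube2h-201 codes for 152 codons in place of 183. The reverse, an exon that the leading model lacks, was seen in both libraries in Ube2d3, Ube2v1 and Ube2g1. In Ube2g1 a 116-base exon, annotated in Ube2g1-203, was in 4 of 94 and 8 of 73 reads, or 4.26% and 10.96%. A 38-base exon of Ube2g1 that is in no annotated transcript was in 4 of 95 and 2 of 76 reads. In Ube2d3 a further exon of 44 bases was in 1 of 362 and 4 of 352 reads. Apart from the 50-base exon of Ube2d3, each of these exons was in a small share of the reads of its gene.

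Of the reads on annotated models, the share held by the leading model differed between members. All 32 leading models were protein-coding, and 60 of the 68 annotated models with reads were. The other 8 had 5 reads in replicate 1 and 4 in replicate 2 together. Of the 24 members with 20 or more annotated reads in both libraries, 13 had a leading model with at least 95%. Ube2m-201 had 282 of 282 and 239 of 240 reads, and Ube2l6-201 had 116 of 116 and 73 of 73. Ube2v1-202 had 92.6% and 95.9%, with 13 and 3 reads on Ube2v1-207, which has an added exon of 119 bases (chr2:167629170-167629288) and codes for 173 codons in place of 147. That exon was in 13 of 218 and 3 of 173 reads, or 5.96% and 1.73%. Ube2f-204 had 80% and 78.1%, with the next model coding for the same 185 codons. Isoform use between the libraries was tested over all genes that had 20 or more annotated reads in both libraries and whose leading model had less than 95% of them, by Fisher's exact test with Benjamini-Hochberg adjustment. Of 11 members tested 0 were called, against a background of 0.0964% of 1037 genes. At an unadjusted p below 0.05 there were 0 members, against 4.05%.

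Reads of a single exon were another part of the family's output. Outside the known models there were 103 such reads in replicate 1 and 89 in replicate 2, over 23 members, and 86.4% and 93.3% of them lay wholly inside the 3′ terminal exon of the leading model. Most were past the stop codon, 82 and 75 reads. Ube2h stood out with 23 and 26 reads, or 24.2% and 29.5% of its reads, all on a stretch of 2741 bases at chr6:30211289-30214029 on the minus strand, inside its terminal exon of 3795 bases. Ube2l3 had 5 and 7 such reads and a further 13 and 11 on incomplete models made of its last 2 exons. Ube2j1 had 5 and 4, or 19.2% and 15.4% of its reads, and Ube2q1 had 7 and 5. Whether these reads come from transcripts of that length or from shortened cDNA was not tested.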

How the data were processed

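Each deposited table held, for 1 library, a raw count of long reads for every transcript model. Per the file headers and the text deposited beside them, the authors made the counts on mm10 with GENCODE M21 and TALON, which adds models. Which aligner, versions and filters they used is not given in the sources used here. For each model its exon number, length and coordinates were deposited too, per the file headers. All 377 models of the 32 genes had the same exon number and length in the tables and in the annotation files.

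A gene's count was the sum over its models, without spike-ins, and CPM was scaled to the reads on annotated genes. The genes, lists, tests and the rule for named genes were chosen with earlier results of these data known. The rule named the 12 genes of highest mean CPM, all called genes, the related pairs and trios, genes with a second model of at least 20%, and the 5 most read unannotated chains. Ube2o, Ube2ql1, Ube2h-201, the genes of low known share and the alternative exons were named after their values were seen. With 1 group of 2 libraries edgeR's quasi-likelihood test had no residual degrees of freedom, so a two-sided exact conditional binomial test was used for genes and Fisher's exact test for isoforms, on the whole table and with Benjamini-Hochberg adjustment. Both measure counting error between 2 libraries and not the spread between animals. For log2 ratios, 0.5 reads were added to both counts. An exon's share was taken over multi-exon reads that held it or had an intron across it, for exons with at least 4 reads on each side. Sequences and coding lengths were taken from GENCODE M21 transcripts, and residues were compared after translation and global alignment. Near-identical copies were transcripts at least 95% identical over at least 80% of their length. There were 33 such copies of 12 members, of which 5 had reads. The tests were checked on data simulated with counting error only, which cannot show how they hold when libraries differ by more than that. Values of 1 member and of some companion genes are not reported here, although counts over the family and the lists include them. Tools were Python 3.11.15, scipy 1.17.1, pandas 2.3.3, R 4.3.3, edgeR 4.0.16 and DESeq2 1.42.0.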

Additional observations from a re-analysis of the deposited data

How the results depend on the processing

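The number of called Ube2 genes was 0 under all 8 alternatives tried (TMM scaling, DESeq2 size factors, read minimums of 1 and 20, known models only, no fold minimum, and the edgeR exact test with a preset variation of 0.1 and 0.2), and the number with differing isoform use was 0 under 3. The DESeq2 size factors moved the median log2 ratio of all genes by -0.08 and TMM by -0.04. Directions near 0 turned with these choices: the log2 ratio of Ube2m was -0.023 with TMM and -0.058 with DESeq2 size factors, and that of Ube2z was -0.0426 and -0.0776. On known models only, Ube2z had -0.17 and Ube2r2 had 0.10. The share of reads on the family was 0.343% with known models only and 0.318% with multi-exon models only. It ran from 0.295% to 0.300% with 1 library left out. Known models held 87.8% and 87.0% of the family's reads, beside 75.9% and 75.6% over all protein-coding genes, so the family's share is higher on them. The share of family reads on known models was 89.2% without Ube2d3. Of the 12 highest genes, 10 had a level higher by more than 1 SD (of 2 libraries) with known models only. CPM was then scaled to the smaller total of reads on known models. Per kilobase, 10 stayed among the 12 highest. With known models only, the share of Cdc34 in its pair with Ube2r2 fell to 33.4%. Shares in other pairs and trios moved too, as means of the 2 libraries. Ube2j2 rose from 58.1% to 68.9% of its pair and Ube2l6 from 63.3% to 71.8%. Ube2e3 rose from 86.5% to 93.7% of its trio, while Ube2d3 fell from 80.3% to 76.9%. No paired analysis was possible because there is 1 group. Genes with fewer than 10 reads, here Ube2t, Ube2e2 and Ube2c, could not be tested, and exon shares from fewer than 40 reads have wide intervals.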
